A study of Mus musculus with 6 samples.

Results

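Genes of the Fanconi pathway and of homologous recombination are described here. Their products mend broken chromosomes, restart stalled replication forks and remove crosslinks between the DNA strands. The set was given as 35 gene symbols, and a gene counted as measured when the accession of an array probe, without its version, belonged to that symbol in RefSeq. Probes were found for 34 of the 35 genes, among 19988 named genes on the array. Rad51c, which acts in strand exchange, had no matching probe and was not analysed here. All 34 had a probe well above background on all 3 arrays of a group, as had 13140 genes in all, and these were tested.

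The cells were taken at embryonic day 14.5 from C57BL/6J mouse embryos, out of the dorsal telencephalon that later forms the cerebral cortex. All embryos carried 1 copy of a GFP knock-in at the Tis21 (Btg2) locus and were bred from homozygous Tis21-GFP males and wild-type females, so both groups share this genotype. The reporter is on in progenitors about to divide into neurons and off in those that only expand, and the series title concerns a shorter S phase at that switch. S-phase cells were gated by a DNA content above that of G1 and below that of G2, and split by green fluorescence into 3 samples with Tis21-GFP (positive) and 3 without (negative). Each sample pooled 30 hemispheres of 15 embryos and about 200000 cells. From each, 50 ng of total RNA was the input for a 1-colour Agilent array. The authors kept 3 experiments out of a larger number as the best ones, and by which measure was not stated in the labels.

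A broken chromosome end is first bound by the Mre11a-Rad50-Nbn complex, then trimmed to a single-stranded tail by nucleases that work with Rbbp8, Exo1 and Blm. Brca1 and Bard1 favour trimming, and Palb2 and Brca2 prepare the tail for strand exchange, in which it invades the sister chromatid with the help of Xrcc2, Xrcc3 and the motor proteins Rad54l and Rad54b. The joined molecules are finally cut apart by Mus81-Eme1, Gen1 and enzymes held by Slx4. At a crosslink, Fancm anchors a core complex whose ubiquitin ligase Fancl modifies the Fancd2-Fanci pair, which calls in the nucleases. In proliferating tissue these genes are mostly active in S phase and G2, when a sister chromatid is at hand.

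Of the 34 genes, 8 were higher in Tis21-GFP positive than in negative S-phase cells and 0 were lower. Those higher were Fancf, Fancd2, Eme1, Rad51ap1, Exo1, Rad54l, Rad54b and Helq, by 1.42-fold to 1.86-fold. A gene was called when the adjusted p of limma's moderated test over all 13140 genes was below 0.05. The 8 calls are 23.5% of the members, beside 12.8% of all tested genes called higher, and 0 lower calls stand beside 13.1% called lower. The median log2 difference, positive minus negative, was 0.30 over the members and 0.115 over all tested genes. At an unadjusted p below 0.05, 13 members (38.2%) differed, near the 40.5% of all genes that did so. Groups did not overlap with positive cells on the higher side for 14 members (41.2%), against 28.1% of all genes, and on the lower side for 0 members, against 18.6%. Between same-numbered arrays, 16 members (47.1%) were higher in positive cells in all 3 pairs and 3 (8.82%) were lower in all 3, against 40.3% and 25% of all genes. The 16 include Brca1, which was tested only because its positive arrays met the background rule.

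**Figure D1:**
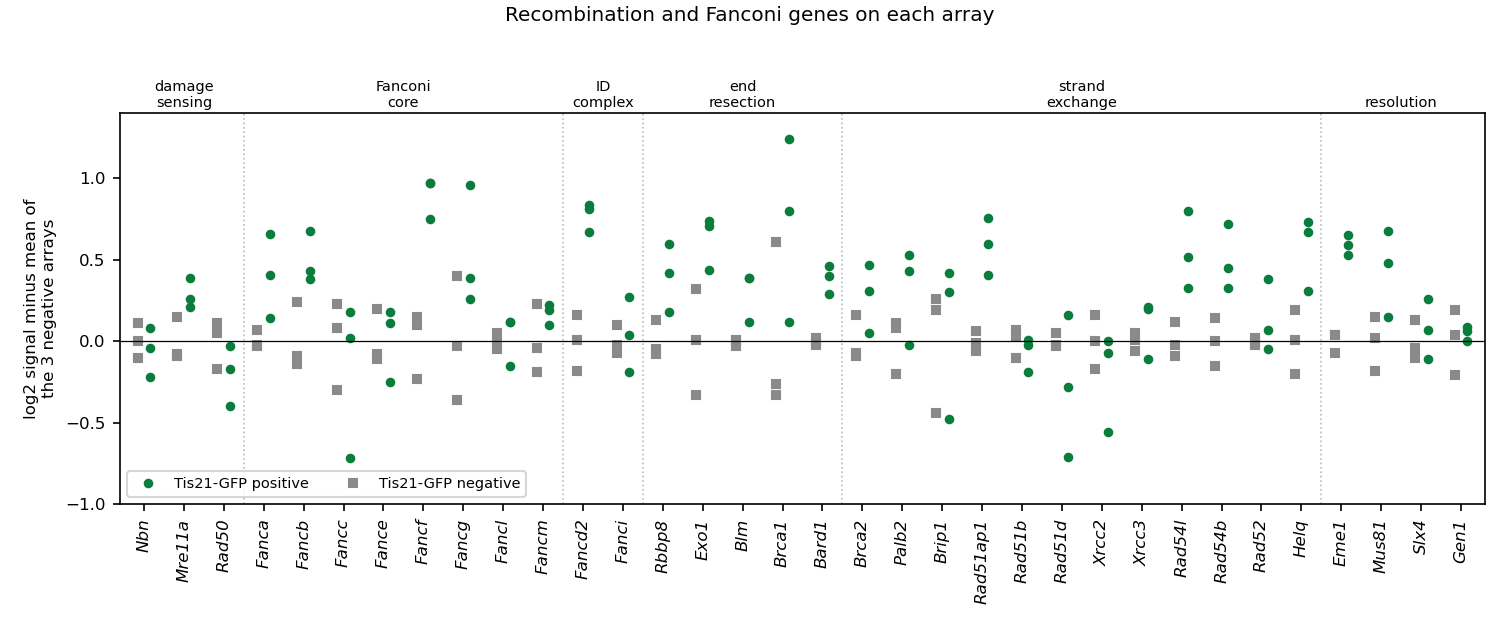
Signal of each of the 34 measured genes on each of the 6 arrays, on the log2 scale, minus that gene's own mean over the 3 negative arrays, with genes in order of step. Circles are Tis21-GFP positive and squares negative arrays, and for Fancf, Fancd2 and Eme1 all 3 circles lie at least 0.49 above the highest square.

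Signals are log2 processed intensities minus the 75th percentile of the same array, so 0 is the level of a fairly bright probe, and levels of different genes cannot be compared since probes differ in brightness. The members' median deviation from each gene's own mean was 0.22, 0.08 and 0.11 on positive replicates 1 to 3 and -0.08, -0.22 and -0.11 on negative replicates 1 to 3. For all genes these medians were 0.05, 0.10 and 0.01 and then -0.09, 0.00 and -0.07. The zero point of a difference depends on how arrays are scaled. The all-gene median ran from -0.058, with a percentile taken only over probes detected on every array (the detected-probe percentile), to 0.297 with median centring. The members' median stood 0.18 above it as reported and 0.13 to 0.23 above it under the 17 other settings. Of the calls over all genes, 49.6% were higher in positive cells, against 65.8% with median centring, 39.6% with quantile normalization, 39.5% with the authors' processed values and 29.1% with the detected-probe percentile. With the all-gene median difference subtracted, a setting added after the data were seen, 4 members were called higher and 0 lower. These were Fancf, Fancd2, Eme1 and Rad51ap1. The count of 8 became 3 (8.82% of members) without Tis21-GFP negative replicate 2 or 3, where 9.17% and 6.07% of all genes were called higher. It became 4 (11.8%) without negative replicate 1 or positive replicate 1, against 6.06% and 8.04% of all genes. After quantile normalization, or in the authors' values, it was 3 (8.82%), against 8.58% and 8.55% of all genes, and with the detected-probe percentile 3, against 7.10%. The members' share of higher calls was therefore near the share of all genes under quantile normalization, in the authors' values and without negative replicate 2.

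**Figure D2:**
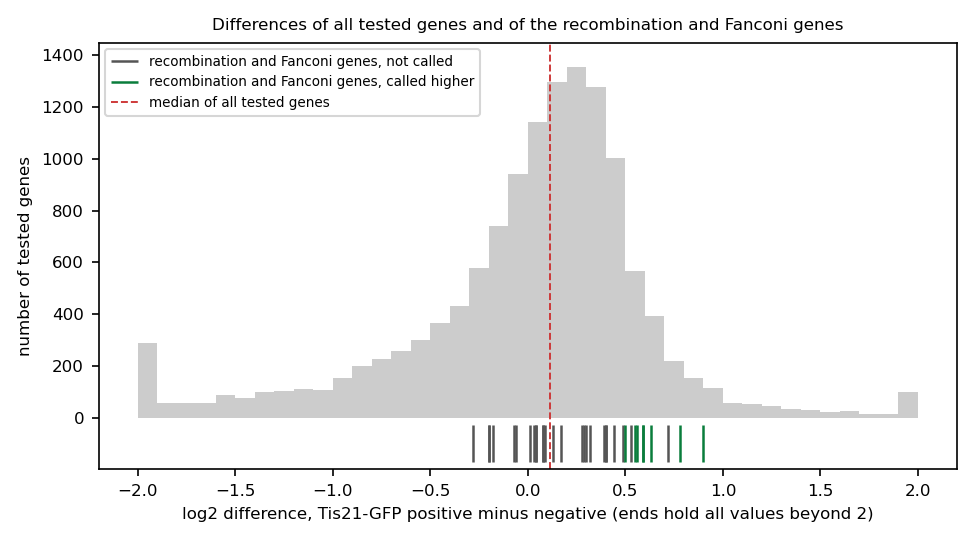
Histogram of log2 differences, positive minus negative, for all 13140 tested genes, with a tick below for each of the 34 recombination and Fanconi genes. The members run from -0.28 to 0.90 around a median of 0.30, the dashed line marks the all-gene median of 0.115, and the far tails of the histogram hold none of them.

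Markers of the sorted cells were checked against the labels. Btg2, the reporter's own locus, was higher in positive cells by 0.77 ± 0.17 (SE, n = 3 per group, adjusted p = 0.0139) and the intermediate progenitor factor Eomes by 3.42 ± 0.24 (adjusted p = 0.000183). Without Tis21-GFP negative replicate 1, Btg2 stood at 0.68 (adjusted p = 0.0585, range over all settings 0.00375 to 0.0585). All 4 markers of cortical identity were well above background on all 6 arrays. Markers of other cells moved with the groups too. Of 11 radial glia genes, 9 were lower in positive cells, and their summed level (linear, in units of each array's 75th percentile) was 125 to 152 in positive and 273 to 312 in negative cells. Of 12 microglia and macrophage genes, 11 were tested and 10 were lower, with sums of 24 to 29.7 against 42.6 to 48. Itgam, which was not called, made up 57.2% to 82.2% of these sums, and the rest summed to 4.29 to 7.85 against 14.4 to 18.8. P2ry12 was well above background on no positive array and Cx3cr1 on 2. Both were tested only because their negative arrays met the background rule. Of 10 genes of meninges and mesenchyme, 9 were tested and 9 were lower, with sums of 0.661 to 0.965 against 5.81 to 11. Col3a1, Lum, Pdgfra and Vtn were well above background on no positive array, and Col1a1 and Nid1 on 1. Only 3 of the 9 were well above background on all 6 arrays. The others were tested only because their negative arrays, where they are high, met the background rule. Of 11 endothelial and pericyte genes, 8 were tested and 5 were lower, with sums that ran the other way, 9.55 to 10.6 against 8.26 to 9.45. Kdr made up 71.9% to 96% of these sums, and the rest summed to 0.381 to 0.63 against 1.53 to 2.32. Pdgfrb, Rgs5 and Abcc9 were well above background on no positive array, and Flt1, which was not called, on 1. These too were tested only because their negative arrays met the background rule, and 4 of the 8 were well above background on all 6 arrays. Of 4 tested red blood cell genes 0 were called (sums 12.2 to 37 against 24 to 36.7), and of 6 ventral or interneuron genes 1 was lower (5.96 to 7.76 against 6.84 to 11.6). That gene, Gad1, was well above background on 1 positive and 3 negative arrays, so it was tested only through its negative group. It is 16.7% of these genes, near the 13.1% of all tested genes called lower. Lhx6, which was not called, made up 71.9% to 90.5% of the ventral and interneuron sums. The rest overlapped, at 0.567 to 2.18 against 0.751 to 1.94. Of 10 genes of cortical neurons, 5 were higher and 3 lower, with sums of 142 to 178 against 81 to 120. The part of these cells in the recombination genes' differences was not tested, and in sorted pools fewer cells of a type and less RNA per cell cannot be told apart.

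Members that were higher together have promoters whose letters can be set side by side. RefSeq promoter sequences (build GRCm38.p6) were matched by symbol for 27 of the 35 genes, among them 5 of the 8 called genes. Fancd2, Exo1 and Rad54b are among the rest. The 250 bases before the annotated start follow for those 5, 5′ to 3′ on the gene's strand. Capitals mark exact matches, on either strand, to an E2F-type motif (TTGGCGC with its variants TTGCCGC and also TTCGCGC and lastly TTCCCGC), bound by the factors that drive S-phase genes, to a CCAAT box (CCAAT), bound by NF-Y, or to a CHR element (TTTGAA, or with a changed centre TTCGAA) of cell cycle genes.
Fancf, chr7:51862268-51862517, minus strand: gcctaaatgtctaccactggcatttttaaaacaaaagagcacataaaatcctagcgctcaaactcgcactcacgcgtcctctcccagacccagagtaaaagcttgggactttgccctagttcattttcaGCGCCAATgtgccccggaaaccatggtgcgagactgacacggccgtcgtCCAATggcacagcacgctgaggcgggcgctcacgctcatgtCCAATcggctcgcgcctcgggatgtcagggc
Eme1, chr11:94653744-94653993, minus strand: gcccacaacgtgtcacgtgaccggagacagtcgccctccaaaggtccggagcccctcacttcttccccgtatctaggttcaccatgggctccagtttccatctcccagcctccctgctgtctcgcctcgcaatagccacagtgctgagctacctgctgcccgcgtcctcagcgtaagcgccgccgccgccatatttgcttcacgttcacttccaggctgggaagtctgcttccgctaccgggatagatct
Rad51ap1, chr6:126939588-126939837, minus strand: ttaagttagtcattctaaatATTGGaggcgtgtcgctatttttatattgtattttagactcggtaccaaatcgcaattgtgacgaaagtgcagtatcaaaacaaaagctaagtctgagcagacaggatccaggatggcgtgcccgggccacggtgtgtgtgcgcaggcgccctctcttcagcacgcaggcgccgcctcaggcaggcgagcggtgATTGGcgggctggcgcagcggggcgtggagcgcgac
Rad54l, chr4:116123691-116123940, minus strand: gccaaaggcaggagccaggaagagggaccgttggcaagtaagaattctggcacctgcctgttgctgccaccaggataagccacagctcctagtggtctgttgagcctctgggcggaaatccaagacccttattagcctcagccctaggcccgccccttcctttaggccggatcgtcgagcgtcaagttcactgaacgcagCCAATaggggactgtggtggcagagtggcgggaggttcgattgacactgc
Helq, chr5:100798601-100798850, minus strand: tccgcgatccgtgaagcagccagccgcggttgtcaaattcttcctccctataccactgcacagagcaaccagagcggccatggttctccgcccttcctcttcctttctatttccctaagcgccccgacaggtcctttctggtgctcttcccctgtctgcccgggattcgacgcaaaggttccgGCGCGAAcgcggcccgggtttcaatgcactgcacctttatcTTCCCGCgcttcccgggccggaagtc
Fancf held CCAAT boxes at 118, 72 and 31 bases before the start, and the first of these overlaps an E2F-type match at 121. Helq held E2F-type matches at 67 and 26 bases, Rad51ap1 CCAAT boxes at 230 and 36, and Rad54l a CCAAT box at 50. Eme1 had no match in this window. A member counted once if any of its promoters matched (27 genes with 30 promoters), whereas the shares of all are over single promoters, so the units differ. An E2F-type match was present for 2 of the 5 called genes and 7 of 21 genes that were not called, and in 7.89% of all 32851 promoters of this length. CCAAT was present for 3 of 5 and 12 of 21, and in 33.8% of all promoters, and CHR for 0 of 5 and 1 of 21 (Bard1), and in 17.1%. Rad51c, which had a promoter entry and no probe, held an E2F-type match and is in neither count. A match describes letters only. Of Rad54l, listed with 2 starts 1 base apart, 1 is shown.

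Damage sensing showed no call. Among the 3 subunits of the complex that binds broken ends, differences were 0.29 for Mre11a, the nuclease, -0.06 for Nbn, which recruits the kinase Atm, and -0.20 for Rad50, the tethering subunit. Mre11a signal was 1.88, 1.75 and 1.70 on positive and 1.40, 1.64 and 1.41 on negative replicates 1 to 3. Its groups did not overlap, yet by only 0.07, and the difference of 0.29 ± 0.13 did not pass (adjusted p = 0.142). Rad50 lay at 0.67, 0.30 and 0.53 in positive and 0.53, 0.75 and 0.81 in negative cells, with overlap. A second Rad50 probe differed by -0.48 ± 0.23.

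The Fanconi core gave 1 call among 8 genes (12.5%), near the 12.8% of all tested genes called higher. Fancf, an adaptor that holds the core together, measured 2.37, 2.37 and 2.15 on positive replicates 1 to 3 and 1.55, 1.50 and 1.17 on negative replicates 1 to 3. Every positive array stood above every negative array by 0.60 or more. The log2 difference was 0.90 ± 0.15 (SE, n = 3 per group, adjusted p = 0.00467), or 1.86-fold with a 95% interval of 1.45 to 2.38, and within pairs it was 0.83, 0.87 and 0.99. Fancf was called under all 17 other settings, with differences of 0.72 to 1.08. Its promoter, shown above, held 3 CCAAT boxes, and those of Brip1 and Xrcc3, which were not called, held as many or more.

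Other core genes stayed short of the threshold. Fancb, which pairs with the ligase Fancl, had 1.64, 1.39 and 1.34 in positive and 1.20, 0.82 and 0.87 in negative cells. These groups did not overlap, and the difference of 0.49 ± 0.16 had an adjusted p of 0.0535. With the replicate number as a block, Fancb passed at the same difference (adjusted p = 0.0281, range over all settings 0.0281 to 0.207). Fanca, a scaffold subunit, differed by 0.40 ± 0.16 (adjusted p = 0.102) without overlap, and passed without Tis21-GFP positive replicate 2 at 0.53 (adjusted p = 0.0396, range 0.0337 to 0.488). Fancg, partner of Fanca, differed by 0.53 ± 0.25 with overlapping groups (adjusted p = 0.144). The remaining 4 were Fancm, the anchor helicase, at 0.17, the ligase Fancl at 0.03, Fance, which binds Fancd2, at 0.01 and the adaptor Fancc at -0.18. Their intervals reached from -0.76 to 0.51, which is the span of changes these 6 arrays allow.

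The 2 proteins that the core modifies gave unlike values. Fancd2 measured -0.39, -0.56 and -0.42 in positive and -1.41, -1.07 and -1.22 in negative cells. The groups were 0.51 apart at the nearest, and the difference was 0.78 ± 0.14 (adjusted p = 0.00605), or 1.71-fold (95% interval 1.37 to 2.15). Fancd2 was called under all 17 other settings, between 0.60 and 0.96. Fanci, the other subunit of the clamp that encloses DNA, measured 1.53, 1.07 and 1.30 in positive and 1.24, 1.36 and 1.19 in negative cells. Positive replicate 2 was the lowest of the 6, positive replicate 1 the highest, and the difference was 0.04 ± 0.15 (adjusted p = 0.871, 95% interval -0.32 to 0.40). The gap between Fancd2 and Fanci was not tested.

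End resection had positive differences for all 5 genes, and 1 passed (20%, beside 12.8% of all tested genes called higher). Among the 5, Brca1 was tested only because its positive arrays met the background rule. Exo1, the exonuclease that trims ends over long distances, measured 2.78, 2.81 and 2.51 in positive and 2.39, 1.74 and 2.08 in negative cells. Its groups were 0.12 apart, and the difference was 0.63 ± 0.19 (adjusted p = 0.0439), or 1.55-fold (95% interval 1.14 to 2.10). This call is near the threshold and was lost without Tis21-GFP positive replicate 1 (0.59), positive replicate 2 (0.58), negative replicate 2 (0.46) or negative replicate 3 (0.64). It was also lost after quantile normalization (0.46), in the authors' values (0.46) and with the detected-probe percentile (0.46), no filter on dim probes (0.63) and the all-gene median subtracted (0.52), with an adjusted p of 0.0136 to 0.148 over all settings. Rbbp8, which starts the cut with the end-binding nuclease, differed by 0.40 ± 0.15 (adjusted p = 0.0895) without overlap, and passed without Tis21-GFP positive replicate 2 at 0.51 (adjusted p = 0.0476, range 0.0326 to 0.451). Blm, a helicase that unwinds the end and later dissolves joined molecules, measured 2.30, 2.03 and 2.30 against 1.92, 1.88 and 1.91, a difference of 0.30 ± 0.13 (adjusted p = 0.130).

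Brca1 was the noisiest gene of the set. It measured -2.24, -2.68 and -3.36 in positive and -2.87, -3.74 and -3.81 in negative cells, with SDs of 0.56 and 0.52, the highest among the members. The probe was dim, well above background on 3 positive and 2 negative arrays, so Brca1 passed the filter only through the positive group and was not tested where all 6 arrays had to pass. Positive replicate 3 fell below negative replicate 1, so the groups overlapped, although positive cells were higher within each pair, by 0.63, 1.07 and 0.46. The difference of 0.72 ± 0.34 did not pass (adjusted p = 0.146). It passed with the replicate block at the same difference (adjusted p = 0.0218) and without Tis21-GFP positive replicate 3 at 1.02 (adjusted p = 0.0422), over a range of 0.0218 to 0.351. Bard1, its obligate partner in a ubiquitin ligase, was steadier, at 2.04, 2.10 and 1.93 against 1.63, 1.62 and 1.66. Its groups were 0.27 apart, and the difference of 0.39 ± 0.12 just missed the threshold (adjusted p = 0.0521). Other Bard1 probes, both dimmer, differed by 0.35 ± 0.17 and 0.14 ± 0.23.

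Strand exchange held 4 of the 8 calls, among 12 measured genes (33.3%, beside 12.8% of all tested genes called higher). Rad51ap1, which helps to pair the invading strand with its template, measured 4.13, 3.97 and 3.78 in positive and 3.43, 3.31 and 3.36 in negative cells. The groups were 0.35 apart, and the difference was 0.59 ± 0.14 (adjusted p = 0.0180), or 1.51-fold (95% interval 1.21 to 1.88). The call was lost without Tis21-GFP positive replicate 1 (0.51), negative replicate 1 (0.62), negative replicate 2 (0.56) or negative replicate 3 (0.59), and after quantile normalization (0.36), in the authors' processed values (0.36), with the detected-probe percentile (0.42) or with no filter on dim probes (0.59). Over all settings the adjusted p lay between 0.00392 and 0.102.

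The related motor proteins Rad54l and Rad54b, which move along DNA and drive strand invasion, gave near-equal differences. Rad54l measured 2.01, 1.82 and 2.29 in positive and 1.47, 1.40 and 1.61 in negative cells, 0.21 apart, with a difference of 0.55 ± 0.16 (adjusted p = 0.0390). Rad54b measured 2.08, 2.20 and 2.47 in positive and 1.75, 1.60 and 1.89 in negative cells, 0.19 apart, with a difference of 0.50 ± 0.15 (adjusted p = 0.0465). Both were highest on positive replicate 3. The Rad54l call was lost without Tis21-GFP positive replicate 1 (0.56), positive replicate 3 (0.42) or negative replicates 1, 2 and 3 (0.53, 0.50 and 0.60), and with quantile normalization (0.42), the authors' values (0.42), the detected-probe percentile (0.37), no filter on dim probes (0.55) or the all-gene median subtracted (0.43), with an adjusted p of 0.0132 to 0.173 over all settings. The Rad54b call was lost when any array was left out: positive replicates 1 to 3 gave 0.59, 0.53 and 0.39 and negative replicates 1 to 3 gave 0.50, 0.43 and 0.58, with an adjusted p of 0.0198 to 0.198 over all settings. It was lost as well with quantile normalization, the authors' values and normexp background (0.36 each), the detected-probe percentile (0.33), the mean of its probes (0.37), no filter on dim probes (0.50) or the all-gene median subtracted (0.39). The 95% intervals were 0.18 to 0.91 and 0.15 to 0.86. A second, dimmer Rad54b probe differed by 0.24 ± 0.26 (adjusted p = 0.534 over all tested probes), so the Rad54b call rests on 1 of its 2 probes.

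Helq, a helicase of crosslink repair and recombination, measured 1.44, 1.86 and 1.80 in positive and 1.14, 0.93 and 1.32 in negative cells. Its groups were 0.11 apart, with a difference of 0.56 ± 0.17 (adjusted p = 0.0438). The call was kept without Tis21-GFP positive replicate 1 and lost without positive replicate 2 (0.48), positive replicate 3 (0.52) or negative replicates 1, 2 and 3 (0.57, 0.46 and 0.66), with an adjusted p of 0.0193 to 0.150 over all settings. Quantile normalization (0.45), the authors' values (0.45), the detected-probe percentile (0.39), no filter on dim probes (0.56) and the all-gene median subtracted (0.45) ended the Helq call too.

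Genes that prepare the tail for strand exchange did not pass. Brca2, a large protein that binds single-stranded DNA, measured 1.90, 1.64 and 2.06 in positive and 1.52, 1.75 and 1.50 in negative cells. The second pair ran the other way from the rest, with differences of 0.39, -0.11 and 0.56, and the groups overlapped. The difference was 0.28 ± 0.16 (adjusted p = 0.216, 95% interval -0.08 to 0.64). Palb2, which bridges Brca1 and Brca2, differed by 0.32 ± 0.18 (adjusted p = 0.220), and a second, dimmer Palb2 probe by 0.78 ± 0.23 (adjusted p = 0.0611 over all tested probes). Brip1, a helicase bound by Brca1, differed by 0.08 ± 0.28. Rad52, an annealing protein, differed by 0.13 ± 0.15.

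The related genes Xrcc3, Rad51b, Xrcc2 and Rad51d, whose products form small complexes that aid strand exchange, gave no call. Differences were 0.09 for Xrcc3, -0.07 for Rad51b, -0.20 for Xrcc2 and -0.28 for Rad51d, and no adjusted p was below 0.353 as reported. Rad51d measured -0.97, -1.41 and -1.84 in positive and -1.16, -1.15 and -1.08 in negative cells, so positive replicate 1 was above all negative arrays and positive replicate 3 far below. Without Tis21-GFP positive replicate 1 its difference was -0.50 (adjusted p = 0.0988), and without positive replicate 3 it was -0.06 (adjusted p = 0.802), the lowest and highest adjusted p over all settings. A second Rad51d probe gave -0.27. Xrcc2 measured 0.37, 0.30 and -0.19 against 0.53, 0.37 and 0.20, and its second probe differed by -0.83 ± 0.28 (adjusted p = 0.0813 over all tested probes). With the mean of its probes, Xrcc2 differed by -0.52 (adjusted p = 0.0506, range over all settings 0.0506 to 0.946), and without Tis21-GFP positive replicate 1 or 3 its reported probe stood at -0.31 and -0.03.

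Resolution gave 1 call among 4 genes (25%, beside 12.8% of all tested genes called higher). Eme1, the partner that activates the Mus81 nuclease, measured 1.91, 1.85 and 1.79 in positive and 1.19, 1.30 and 1.30 in negative cells. SDs were 0.06 and 0.07, the groups were 0.49 apart, and the difference was 0.59 ± 0.12 (adjusted p = 0.0109), or 1.51-fold (95% interval 1.24 to 1.83). Eme1 was called under all 17 other settings, between 0.42 and 0.77, with an adjusted p of 0.00482 to 0.0499. Mus81, the catalytic subunit, measured 0.76, 0.96 and 0.43 against 0.30, 0.43 and 0.10. Its lowest positive array met the highest negative one, and the difference of 0.44 ± 0.18 did not pass (adjusted p = 0.0987). It passed with the replicate block (adjusted p = 0.0412) and without Tis21-GFP positive replicate 3 at 0.58 (adjusted p = 0.0380), over a range of 0.0380 to 0.278. Slx4, the nuclease scaffold, differed by 0.08 ± 0.15 and Gen1, a resolvase that acts alone, by 0.04 ± 0.14, both with overlap.

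**Figure D3:**
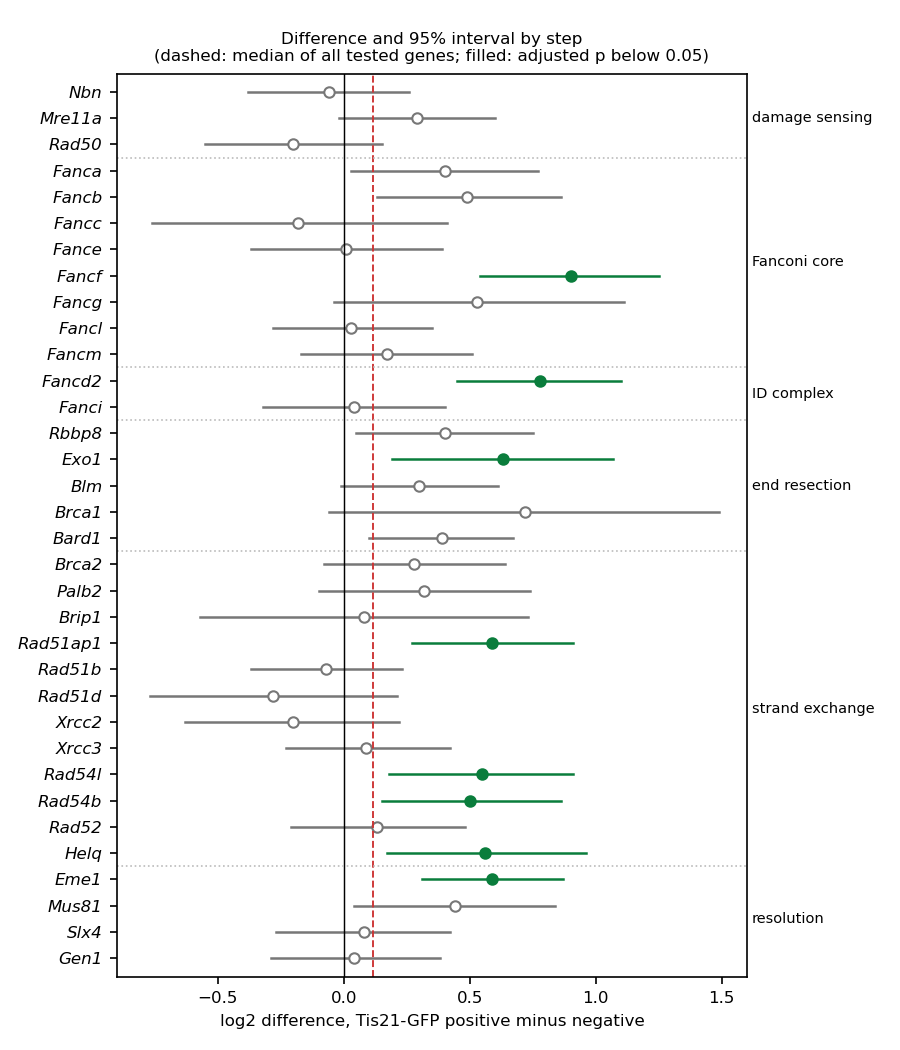
Log2 difference of each gene, positive minus negative (horizontal axis), with its 95% interval from limma, by step. Filled circles passed at an adjusted p below 0.05, and the dashed line marks the all-gene median of 0.115. The intervals of 21 of the 34 genes include 0, among them the widest, that of Brca1.

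By step, the median differences were -0.06 for damage sensing, 0.28 for the core, 0.41 for Fancd2 and Fanci, 0.40 for resection, 0.21 for strand exchange and 0.26 for resolution. Steps hold 2 to 12 measured genes, and differences between steps were not tested. Of the 34 genes, 13 stood below the all-gene median of 0.115, and none of the resection genes did. Brca1 is counted there although only its positive group met the background rule. Positive differences numbered 28 and negative ones 6, and 15 were negative with the detected-probe percentile, against 10 with quantile normalization and 3 with median centring. Several tested probes existed for 9 members. In 3 of them, Fancc, Fance and Fancl, the probes differed in sign, with no difference above 0.18 in size.

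Other genes of these pathways came from a list of 55, of which 53 were on the array and 50 were tested. In positive cells 15 were higher (30%) and 2 lower (4%), beside 12.8% and 13.1% of all tested genes. The median difference was 0.32, against 0.115 over all tested genes. Psmc3ip, a cofactor of strand exchange, was higher by 0.92 ± 0.13 (adjusted p = 0.00216), at 2.17, 2.28 and 1.98 against 1.19, 1.20 and 1.28. Dna2, a nuclease of long-range resection, was higher by 0.89 ± 0.16 (adjusted p = 0.00632) and its second probe by 0.92. Rpa3, a subunit of the complex that coats single-stranded DNA, was higher by 0.75 ± 0.15 (adjusted p = 0.0102), and Brcc3, a deubiquitinase that travels with Brca1, by 0.70 ± 0.12 (adjusted p = 0.00481). These 4 were called under all 17 other settings.

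The 2 lower genes, named after their values were seen, were Zswim7 and Mnd1. Zswim7, a recombination factor, measured -0.46, -0.09 and -0.28 in positive and 0.46, 0.69 and 0.27 in negative cells, a difference of -0.75 ± 0.16 (adjusted p = 0.0134). Mnd1, the partner of Psmc3ip, measured -0.15, -0.44 and -0.24 against 0.33, 0.57 and 0.22, a difference of -0.65 ± 0.15 (adjusted p = 0.0170), and its second probe gave -0.60. Mnd1 did not pass without Tis21-GFP negative replicate 1 (-0.67, adjusted p = 0.0528) or negative replicate 2 (-0.55, adjusted p = 0.0549), over a range of 0.00651 to 0.0878. Nor did Mnd1 pass with median centring (-0.47) or normexp background. Zswim7 did not pass with median centring (-0.57, adjusted p = 0.0708, range 0.00356 to 0.0708). Without single arrays the 15 higher calls fell most without Tis21-GFP negative replicate 3, to 4, without negative replicate 1, to 5, and to 7 without negative replicate 2 or positive replicate 1. In the same order, 6.07%, 6.06%, 9.17% and 8.04% of all genes were called higher. Lower calls were 1 without negative replicate 1 or 2.

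**Figure D4:**
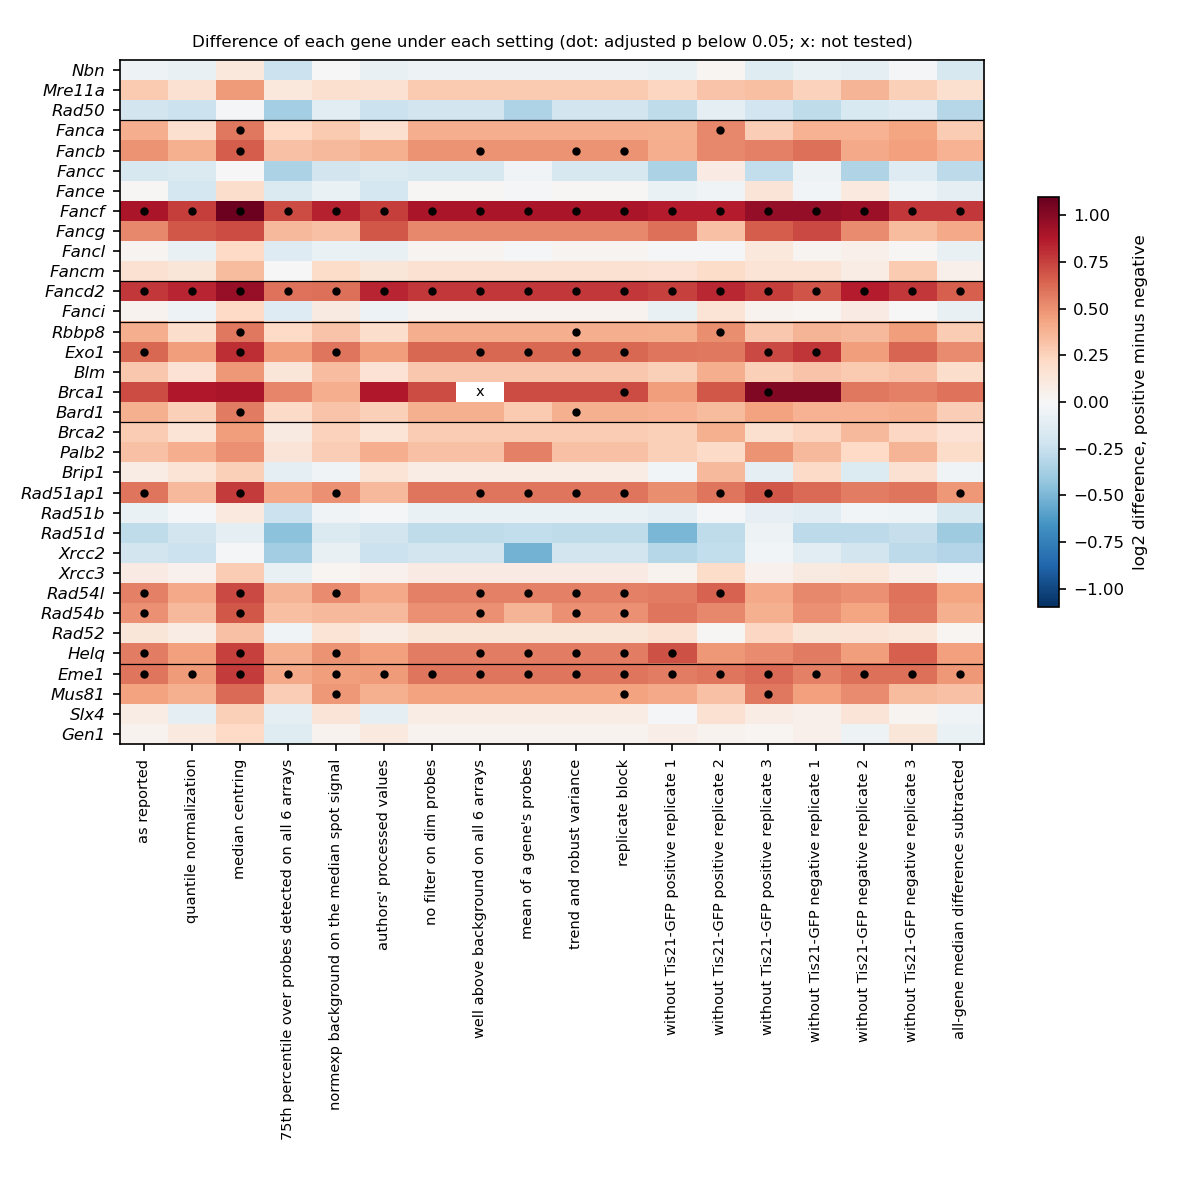
Log2 difference of each gene (rows, by step) under the reported setting and 17 others (columns), in red where positive cells were higher and in blue where lower, with a dot for an adjusted p below 0.05. Fancf, Fancd2 and Eme1 carry a dot in every column, 20 genes carry none and the other 11 carry a dot in some columns. Brca1 was not tested where all 6 arrays had to be above background.

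Over the reported setting and the 17 others, 3 members were called throughout, 11 in some settings and 20 in none, and 0 were called lower in any. Members called in some settings were the 5 named above as called, along with Fanca, Fancb, Rbbp8, Bard1, Brca1 and Mus81.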

How the data were processed

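Per the submitters' processing notes, arrays were read by Agilent's Feature Extraction (version 10.7.1.1). The scanner files hold intensity values per spot, background-subtracted and detrended but not scaled between arrays per the file headers. A value table deposited by the authors gives log2 values of the same arrays. How it was scaled and centred is not stated, each column had a median of 4.6611, and each correlated at 0.999482 or above with the scanner values.

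Control spots and outlier spots (118 to 191 per array) were left out, 0 spots were saturated, spots of a probe were averaged as log2 processed signal, and each array's 75th percentile (213 to 341 intensity units) was subtracted. Probes had to be well above background on every array of 1 or both groups. Of 55681 probes, 26370 were named through RefSeq accessions, and a gene's brightest kept probe stood for it. The comparison used limma 3.58.1 (R 4.3.3), tested on simulated data, with Benjamini-Hochberg adjustment over all 13140 genes. The number of arrays limits the precision. Normexp used the median spot signal, as the mean signal was not used here.

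Named were all members by step, with per-array values for called genes, each step's largest moderated statistic, Brca1 and Brca2, and the 4 other pathway genes with the smallest adjusted p. Further per-array values were added after they were seen. Members, lists and tests were chosen with earlier results of these data known. Same-numbered arrays deviated from their group means together (correlations 0.23, 0.13 and 0.37, at most 0.06 between other numbers), so the numbers were taken as pairs. The reported test had no block, and the block was an alternative. All arrays came from 1 slide and 1 scan. The sample titles also give each number a positive and a negative array. The reported test, without the block, treated these arrays as independent. Of the arrays, 0 pairs were identical.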

Additional observations from a re-analysis of the deposited data

How the results depend on the processing

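No alternative gave a lower call among the members (0 under all 17). Members called higher were 3 with no filter on dim probes, which tests more genes, with the detected-probe percentile, with quantile normalization or with the authors' values, 4 with the all-gene median difference subtracted, 11 with the replicate block against 8 without it, and 3 to 7 with 1 array left out. Shares of all genes called higher in these settings were 4.48% with no filter, 7.10% with the detected-probe percentile, 8.58% with quantile normalization and 8.55% in the authors' values, beside 8.82% of members. With the all-gene median subtracted the share was 7.66%, beside 11.8% of members. With the block it was 15.4% beside 32.4%, against 12.8% beside 23.5% without it. With 1 array left out it was 6.06% to 13.3%, beside 8.82% to 20.6% of members. The highest count was 12, with median centring (35.3% of members, beside 17.9% of all genes). It was 11 with a trended, robust variance in limma (32.4%, beside 17.9%). Where all 6 arrays had to be above background, 9 of 33 tested members were called (27.3%, beside 14.3%). The members' median difference was 0.17 after quantile normalization or in the authors' values, 0.12 with the percentile over detected probes, 0.48 with median centring and 0.18 with the all-gene median subtracted. Other pathway genes called higher were 6 with quantile normalization, the authors' values and no filter, 7 with the percentile over detected probes, 8 with the all-gene median subtracted, 19 with median centring and 4 to 14 with 1 array left out. The shares of all genes given above hold for these settings too. Those called lower were 0 with median centring, 1 with normexp background and 1 to 3 with 1 array left out. Beyond the changes given above, the replicate block changed no call of a member.

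Sign changes were confined to members that did not pass in any of the settings compared here. With quantile normalization and with the authors' values, Fance stood at -0.19, Fancl at -0.08, Fanci at -0.06 and Slx4 at -0.11. With median centring, Nbn stood at 0.12, Rad51b at 0.11 and Fancc at 0.00. With the percentile over detected probes, Fance stood at -0.16, Fancl and Fanci at -0.14, Gen1 at -0.13, Brip1 and Slx4 at -0.10, Xrcc3 at -0.08, Rad52 at -0.04 and Fancm at 0.00. With normexp background, Fance and Fancl stood at -0.07, Brip1 at -0.04 and Nbn at 0.00. When probes of a gene were averaged, Fance stood at -0.01 and Fancl at -0.02. With the all-gene median subtracted, Fance stood at -0.11, Fancl and Fanci at -0.08, Gen1 at -0.07, Brip1 and Slx4 at -0.04 and Xrcc3 at -0.02. With 1 array left out, the range was -0.07 to 0.14 for Fance, -0.01 to 0.12 for Fancl, -0.08 to 0.15 for Fanci, -0.15 to 0.36 for Brip1, -0.02 to 0.17 for Slx4, -0.13 to 0.02 for Nbn, -0.35 to 0.09 for Fancc and -0.06 to 0.13 for Gen1. The cause was not tested.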
